A study of Mus musculus with 4 samples.

Results

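Protocadherins are adhesion molecules of the cadherin superfamily, and the genes described here are the 69 of 30637 genes in the deposited expression table whose symbol begins with Pcdh. They comprise 14 Pcdha, 21 Pcdhb and 22 Pcdhg genes, which lie in clusters, and 12 non-clustered genes. Poly(A)-selected RNA came from telencephalic tissue of C57BL/6 mouse embryos at embryonic day 13, in 4 libraries. The Pd1CKO group (Pd1CKO 1 and Pd1CKO 2) carried a conditional knockout of Pd1, and the control group (control 1 and control 2) carries the label WT on its samples, while the design text calls it Pd1fl/fl, with floxed alleles. The Cre driver, the deleted exons and the litters are not stated in the labels, so the p-values cover the spread of these samples alone, which may be technical.

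Clustered protocadherin genes give neurons their surface identity. In each of the Pcdha and Pcdhg clusters a large variable exon with its own promoter is spliced to constant exons that all genes of the cluster share, while each Pcdhb gene is a separate transcription unit. A neuron expresses a small, largely random set of these isoforms, chosen by promoter methylation and by CTCF and cohesin loops to distant enhancers, and the proteins bind only matching sets on other cells, which underlies self-avoidance of dendrites and axons. The C-type genes at the ends of the Pcdha and Pcdhg clusters are expressed more uniformly. Non-clustered protocadherins, of which the delta-1 and delta-2 families are the main branches, are expressed by region and layer in the embryonic brain and take part in cell sorting, migration and axon growth.

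Expression was measured as FPKM, fragments per kilobase of exon scaled by library depth, and the values implied 16197000 to 18736000 counted fragments a library. Pd1 was read as Pdcd1, which was listed at 0 in Pd1CKO 2, Pd1CKO 1 and control 1 and at 0.416 FPKM in control 2, so it gave no check of the genotype labels. The telencephalic origin was examined with marker lists. The 9 dorsal telencephalon genes summed to 650 FPKM in Pd1CKO 2, 637 in control 2, 635 in Pd1CKO 1 and 575 in control 1, and the 12 ventral genes summed to 236, 224, 345 and 502 FPKM in the same libraries, with no gene of either list at 0 in any library. The 8 genes of a diencephalon list summed to 13.2 FPKM in Pd1CKO 2, 15.4 in control 2, 20.5 in Pd1CKO 1 and 56.4 in control 1. The part of such tissue in the control 1 values was not tested. The libraries differed more by the number in their titles than by genotype, with 81.6% of the variance on a first principal component that set the libraries numbered 2 apart from those numbered 1. The labels do not say what the number stands for. Each genotype comparison is therefore also given within each number, and the members are compared between the numbers. With 2 libraries in a group, an exact permutation test cannot go below p = 0.3333.

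Over whole exon length, non-clustered genes held the highest levels along with 1 C-type gamma gene. The length of each Pcdha and Pcdhg gene includes at least 2860 and 2116 bases shared with other members, so this ranking depends on the length used. Pcdh8, a delta-2 protocadherin known in rat neurons for drawing N-cadherin away from the synapse, averaged 10.6 FPKM over the 4 libraries. Its level was 10.3 FPKM in Pd1CKO 2, 8.91 in control 2, 9.86 in Pd1CKO 1 and 13.4 in control 1, so that Pd1CKO was above control at number 2 and below it at number 1. Pcdh1, a delta-1 member, stood at 8.69, 8.03, 8.63 and 9.36 FPKM in the same libraries, the narrowest relative range of the 12 non-clustered genes. Pcdh10, a delta-2 gene required for growth of striatal axons in mice, stood at 6.38, 5.68, 5.51 and 4.99 FPKM.

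Of the 9 non-clustered genes tested, Pcdh7, Pcdh9 and Pcdh17 rose in the libraries numbered 2 and 0 fell, where 16.5% of the 13927 genes tested were called higher and 18.5% lower. Pcdh7, a delta-1 gene whose human protein binds the phosphatase inhibitor SET, had 3.52 FPKM in Pd1CKO 2 and 3.37 in control 2, against 1.62 in Pd1CKO 1 and 1.21 in control 1. Its log2 difference on the log2(FPKM + 1) scale, number 2 minus number 1, was 0.89 ± 0.14 (SE; limma adjusted p = 0.00855). Pcdh9, also of delta-1, had 5.29 and 4.77 FPKM in Pd1CKO 2 and control 2, against 3.17 and 2.37 in Pd1CKO 1 and control 1 (limma adjusted p = 0.020). Pcdh17, a delta-2 gene that marks cortical and basal ganglia circuits in mice, had 3.69 and 4.05 FPKM in Pd1CKO 2 and control 2, against 2.69 and 2.04 in Pd1CKO 1 and control 1 (limma adjusted p = 0.0369). The calls of Pcdh9 and Pcdh17 held in 11 and 8 of 13 planned fits, with adjusted p up to 0.0772 and 0.212 in the others. Within genotype the Pcdh7 level was 2.18-fold as high in Pd1CKO 2 as in Pd1CKO 1 and 2.79-fold as high in control 2 as in control 1, with 95% counting intervals of 1.90 to 2.49 and 2.39 to 3.26.

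Pcdh18 and Pcdh19 had their highest value in Pd1CKO 1. Pcdh18, whose protein binds the adaptor Dab1 in mice, was at 5.14 FPKM in Pd1CKO 2, 4.67 in control 2, 7.44 in Pd1CKO 1 and 4.82 in control 1. Both Pd1CKO libraries were above both controls, the log2 difference between Pd1CKO and control was 0.33 ± 0.24 (SE), and it did not pass in limma (adjusted p = 0.9998). Genes of the meninges and mesenchyme summed to 6.55, 5.23, 101 and 56.8 FPKM over 10 markers in the same libraries, and their part in the Pcdh18 values was not tested. Pcdh19, the X-linked delta-2 gene mutated in a human epilepsy of females, was at 6.58, 6.61, 9.83 and 6.50 FPKM. Pd1CKO 2 alone expressed Y-linked genes (Ddx3y at 9.48 FPKM) and had Xist at 0.00308 FPKM, against 34.7 to 61.2 in the other libraries. Pcdh11x, the other X-linked member, was at 1.46 FPKM in Pd1CKO 2, 1.14 in control 2, 0.700 in Pd1CKO 1 and 0.614 in control 1.

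The remaining members were weakly expressed. Pcdh12, a vascular endothelial protocadherin, was at 0.848, 1.05, 1.30 and 0.818 FPKM in Pd1CKO 2, control 2, Pd1CKO 1 and control 1, and 10 endothelial markers summed to 41.7, 42.0, 83.04 and 74.5 FPKM. Both endothelial sums of number 1 were above those of number 2, whereas Pcdh12 was above the other 3 libraries in Pd1CKO 1 alone. Pcdh20 stood at 1.21 and 1.39 FPKM in Pd1CKO 2 and control 2, against 0.748 and 0.382 in Pd1CKO 1 and control 1. Pcdh15, which forms the tip links of inner ear hair cells together with Cdh23, stood at 0.314 and 0.348 FPKM in Pd1CKO 2 and control 2, against 0.186 and 0.138 in Pd1CKO 1 and control 1. In bulk tissue, fewer cells of a type and less RNA per cell cannot be told apart for any of these genes.

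**Figure D1:**
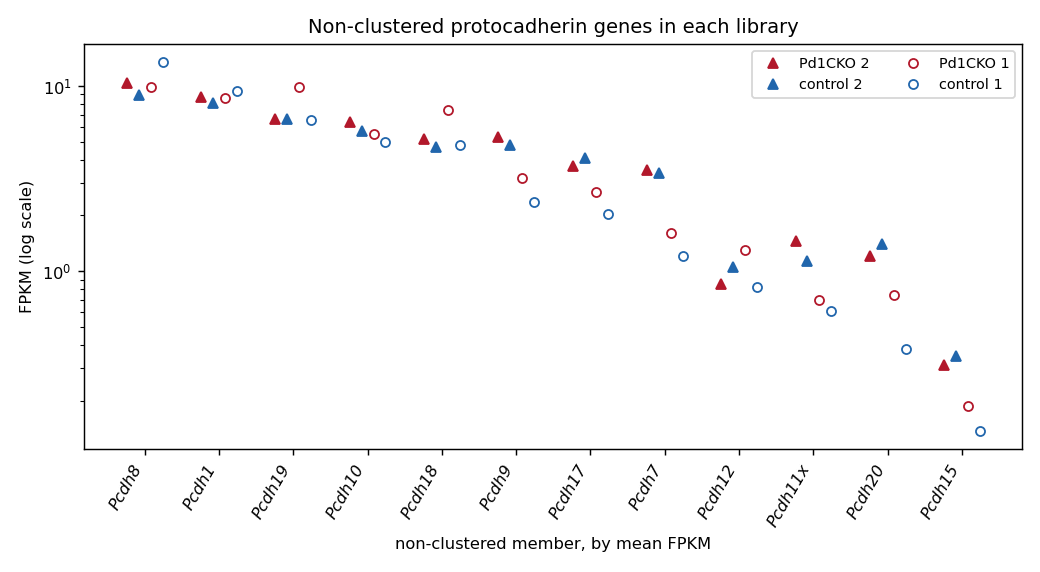
FPKM on a log scale for the 12 non-clustered genes, ordered by mean; triangles are libraries numbered 2, open circles libraries numbered 1, red Pd1CKO and blue control. Pcdh9, Pcdh17, Pcdh7, Pcdh11x, Pcdh20 and Pcdh15 have both triangles above both circles, as does Pcdh10 by a small margin, while Pcdh19 and Pcdh18 have their top value in Pd1CKO 1.

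Promoter sequence was available for 9 of the 12 non-clustered genes in RefSeq for build GRCm38.p6, taken as 250 bases before to 50 after a start listed there. The promoters of Pcdh7 (chr5:57717831-57718130, plus strand), Pcdh9 (chr14:93890630-93890929, minus strand) and Pcdh17 (chr14:84443313-84443612, plus strand) are shown because these genes were higher together in the libraries numbered 2, and that of Pcdh8 (chr14:79771263-79771562, minus strand) because it had the highest mean FPKM over whole gene length and was not. Capitals mark a match to 1 of 3 motifs searched on both strands. The TATA box was searched as TATAAA. The E-box was searched as CAGCTG, and the third motif was the CTCF core. No matches in these genes overlapped.
Pcdh7: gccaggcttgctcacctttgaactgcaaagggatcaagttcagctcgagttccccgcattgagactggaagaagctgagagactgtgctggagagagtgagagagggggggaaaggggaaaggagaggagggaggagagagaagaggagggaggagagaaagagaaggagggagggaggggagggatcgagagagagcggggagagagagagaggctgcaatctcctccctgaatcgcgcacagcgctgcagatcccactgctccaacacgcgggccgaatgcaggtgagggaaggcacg
Pcdh9: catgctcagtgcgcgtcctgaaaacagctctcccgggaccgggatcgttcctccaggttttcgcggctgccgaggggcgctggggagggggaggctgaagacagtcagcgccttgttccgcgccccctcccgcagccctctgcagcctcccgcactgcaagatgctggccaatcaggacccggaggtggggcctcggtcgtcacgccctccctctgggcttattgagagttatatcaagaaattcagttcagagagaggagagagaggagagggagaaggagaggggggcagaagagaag
Pcdh17: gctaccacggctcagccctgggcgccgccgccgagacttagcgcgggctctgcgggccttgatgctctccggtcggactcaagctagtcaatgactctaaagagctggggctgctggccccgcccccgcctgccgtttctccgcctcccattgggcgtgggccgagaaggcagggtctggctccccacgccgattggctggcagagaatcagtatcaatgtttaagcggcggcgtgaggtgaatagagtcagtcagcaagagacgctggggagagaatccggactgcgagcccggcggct
Pcdh8: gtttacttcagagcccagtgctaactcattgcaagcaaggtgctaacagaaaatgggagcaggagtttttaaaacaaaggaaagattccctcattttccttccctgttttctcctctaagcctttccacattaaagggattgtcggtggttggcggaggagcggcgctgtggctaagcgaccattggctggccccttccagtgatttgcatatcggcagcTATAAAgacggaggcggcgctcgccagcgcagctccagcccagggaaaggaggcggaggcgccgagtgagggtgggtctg
The Pcdh8 promoter held a TATA box that began 30 bases before the gene start. Pcdh15 also held a TATA box, and its promoter had the only E-box among the 10 sequences of these genes. That Pcdh15 sequence (chr10:73821617-73821916, plus strand) lies inside the gene as deposited, which starts at 73099342, so it belongs to another start. The CTCF core was found in 0 of the 10. Of all 32851 promoters in the table, 13.6% held the TATA box, 16.3% the E-box and 1.28% the CTCF core. The Pcdh17 promoter had 26 CpG sites, that of Pcdh9 had 18, that of Pcdh8 had 14, that of Pcdh7 had 11 and that of Pcdh20 had 4, against a median of 7 over all promoters.

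The clustered genes were mostly higher in the libraries numbered 2. Of the 66 members that averaged 0.1 FPKM or more, 51 had both libraries numbered 2 above both numbered 1 and 0 had them below, against 34.2% and 30.0% of the 22084 genes at that level. The median ratio of number 2 to number 1 was 2.00 over the 66 members and 1.03 over all genes at that level. The other 3 members, Pcdha1, Pcdha4 and the second of 2 genes named Pcdha11 (ENSMUSG00000102206), rested on 26, 11 and 19 fragments over the 4 libraries. In the limma fit of number 2 against number 1, 16 of the 32 members tested, those with a mean of at least 1 FPKM, passed an adjusted p of 0.05, all of them higher, against 16.5% of the 13927 genes tested that were called higher and 18.5% called lower. A gene can pass either filter, at 1 or at 0.1 FPKM, on its libraries numbered 2 alone, since each uses the mean of the 4 libraries. Without a filter, 52 of the 69 members had both libraries numbered 2 above both numbered 1 and 1 had them below. Leaving out a library keeps 1 library in its number, so calls from such fits rest on 1 library there. Without Pd1CKO 2 or control 2, fewer members and fewer of all genes were called. Without control 1 or Pd1CKO 1, members called lower also appeared. Of the 16 called members, those still tested kept their sign in each of these fits.

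**Figure D2:**
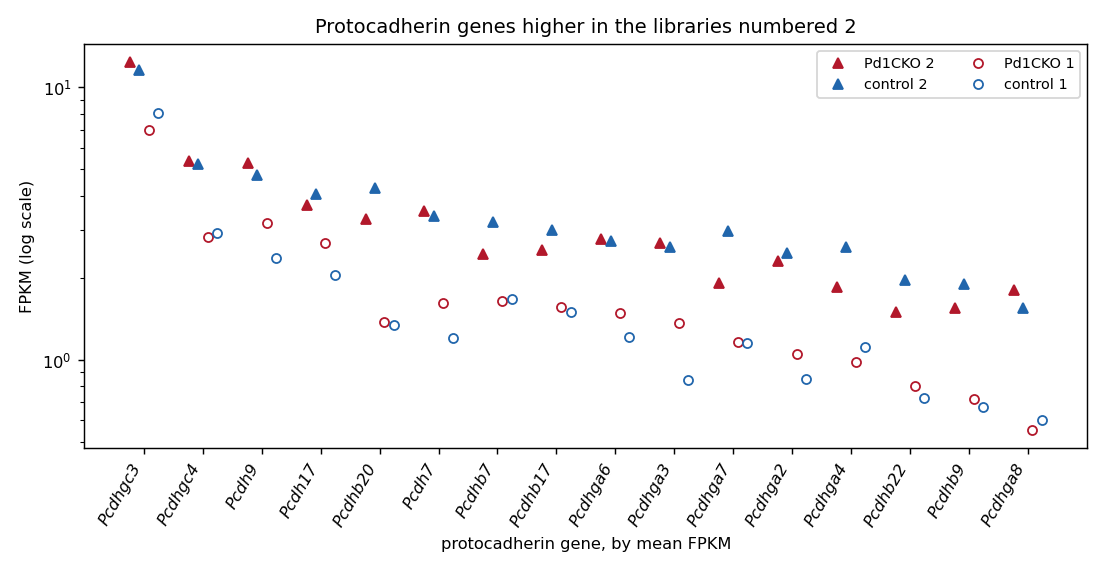
FPKM on a log scale for the 16 protocadherin genes with a limma adjusted p below 0.05 between the numbers; triangles are libraries numbered 2, open circles libraries numbered 1, red Pd1CKO and blue control. In each of the 16 genes both triangles lie above both circles, with Pcdhgc3 at 12.4 and 11.5 FPKM against 6.99 and 8.05.

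All 21 Pcdhb genes had both libraries numbered 2 above both numbered 1. The cluster, on mm10 chromosome 18 from 37294812 to 37524479, summed to 22.4 FPKM in Pd1CKO 2 and 27.6 in control 2, against 11.7 in Pd1CKO 1 and 10.9 in control 1. The means were 24.97 ± 3.67 FPKM for number 2 and 11.3 ± 0.541 for number 1 (SD, n = 2 each). Pcdhb20 was the highest Pcdhb gene, with 3.29 and 4.27 FPKM in Pd1CKO 2 and control 2, against 1.38 and 1.35 in Pd1CKO 1 and control 1. Its log2 difference was 1.01 ± 0.15 (SE), with a limma adjusted p of 0.00687, the smallest among the members. Pcdhb7 had 2.45 and 3.21 FPKM in Pd1CKO 2 and control 2, against 1.65 and 1.68 in Pd1CKO 1 and control 1. Pcdhb17 had 2.54 and 3.01 FPKM, against 1.56 and 1.502. Pcdhb22 had 1.504 and 1.97 FPKM, against 0.800 and 0.725, and Pcdhb9 had 1.55 and 1.90 FPKM, against 0.716 and 0.670. These 5 genes, the highest of the cluster, each passed in limma, and Pcdhb7, Pcdhb22 and Pcdhb17 did so in 6, 9 and 10 of the 13 planned fits, with adjusted p up to 0.370, 0.242 and 0.231 in the others. Pcdhb5 was the only other Pcdhb gene tested (adjusted p = 0.076).

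Variable Pcdha genes were expressed at low levels and mostly showed the same order of libraries. The cluster, from 36930184 to 37187661 on the same chromosome, summed to 7.27 FPKM in Pd1CKO 2 and 7.22 in control 2, against 4.09 in Pd1CKO 1 and 2.46 in control 1. Among the genes other than C-type that averaged 0.1 FPKM or more, 9 of 9 had both libraries numbered 2 above both numbered 1, with a median ratio of 3.04. Pcdha12 had 0.839 and 0.880 FPKM in Pd1CKO 2 and control 2, against 0.280 and 0.262 in Pd1CKO 1 and control 1. Pcdha2 had 0.876 and 0.749 FPKM, against 0.309 and 0.151. Pcdha9 had 0.745 and 0.763 FPKM, against 0.350 and 0.121, and Pcdha3 had 0.684 and 1.04 FPKM, against 0.531 and 0.374. None of these reached the mean of 1 FPKM needed for the test. Their FPKM uses the whole exon length, of which at least 2860 bases are shared within the cluster. With all fragments divided by unshared exon alone, Pcdha12, Pcdha2, Pcdha9 and Pcdha3 averaged 1.55, 1.12, 1.06 and 1.42. That scale holds only if no fragment in shared exon was counted. The low levels and the filter thus depend on the length used. Pcdhac2, the C-type gene that serotonergic axons of mice need for tiling, was the highest alpha gene and the only one tested, at 1.39 FPKM in Pd1CKO 2, 1.11 in control 2, 1.36 in Pd1CKO 1 and 0.695 in control 1, with overlap between the numbers. Pcdhac1 was at 0.255, 0.182, 0.227 and 0.0696 FPKM.

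Within the Pcdhg cluster the gamma A and gamma B genes differed in how many stood apart by number. The cluster, from 37661793 to 37841873, summed to 53.9 FPKM in Pd1CKO 2 and 52.1 in control 2, against 36.4 in Pd1CKO 1 and 30.8 in control 1. Of the 12 gamma A genes 9 had both libraries numbered 2 above both numbered 1, with a median ratio of 2.07, and 6 of 10 tested were called higher. Of the 7 gamma B genes 2 did, Pcdhgb1 and Pcdhgb2, with a median ratio of 1.09, and 0 of 4 tested were called. Over all genes averaging 0.1 FPKM or more, 34.2% had both libraries numbered 2 above both numbered 1. Of all genes tested, 16.5% were called higher. The gamma B count of 2 is near the first of these shares, and 4 tested genes are too few to set against the other. The summed gamma A level was 23.3 and 24.9 FPKM in Pd1CKO 2 and control 2, against 14.3 and 11.4 in Pd1CKO 1 and control 1. The summed gamma B level was 11.9 and 9.58 FPKM, against 11.6 and 7.94. The difference between the A and B genes was not tested.

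Among the gamma A genes, Pcdhga2 had 2.31 and 2.48 FPKM in Pd1CKO 2 and control 2, against 1.05 and 0.850 in Pd1CKO 1 and control 1 (limma adjusted p = 0.0111). Pcdhga8 had 1.81 and 1.55 FPKM, against 0.553 and 0.603 (limma adjusted p = 0.0154). Pcdhga12, the highest gamma A gene and the last along the chromosome, had 3.63 and 3.20 FPKM, against 2.80 and 2.47, and did not pass (limma adjusted p = 0.139). Of the gamma B genes, Pcdhgb7 had 1.83 and 1.43 FPKM, against 2.33 and 1.61, the lowest ratio of the cluster at 0.826. Along the cluster the ratio had a Spearman correlation of -0.585 with gene order over 22 genes, -0.434 within Pd1CKO and -0.616 within control. The same correlation was -0.473 over the 11 Pcdha genes averaging 0.1 FPKM or more and 0.129 over the 21 Pcdhb genes. These are descriptions across genes that share the same 4 libraries and, within the Pcdha and Pcdhg clusters, exons.

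All 3 gamma C-type genes were higher in both libraries numbered 2. Pcdhgc3, which restrains Wnt signalling through Axin1 in mouse neurons, was the highest clustered gene. It stood at 12.4 FPKM in Pd1CKO 2 and 11.5 in control 2, against 6.99 in Pd1CKO 1 and 8.05 in control 1 (limma adjusted p = 0.0118). Pcdhgc4, the isoform needed for survival of interneurons in mice, stood at 5.39 and 5.23 FPKM, against 2.81 and 2.92 (limma adjusted p = 0.00709). Pcdhgc5, which binds GABA-A receptors in rat neurons, stood at 0.956 and 0.858 FPKM, against 0.742 and 0.515, below the level tested.

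**Figure D3:**
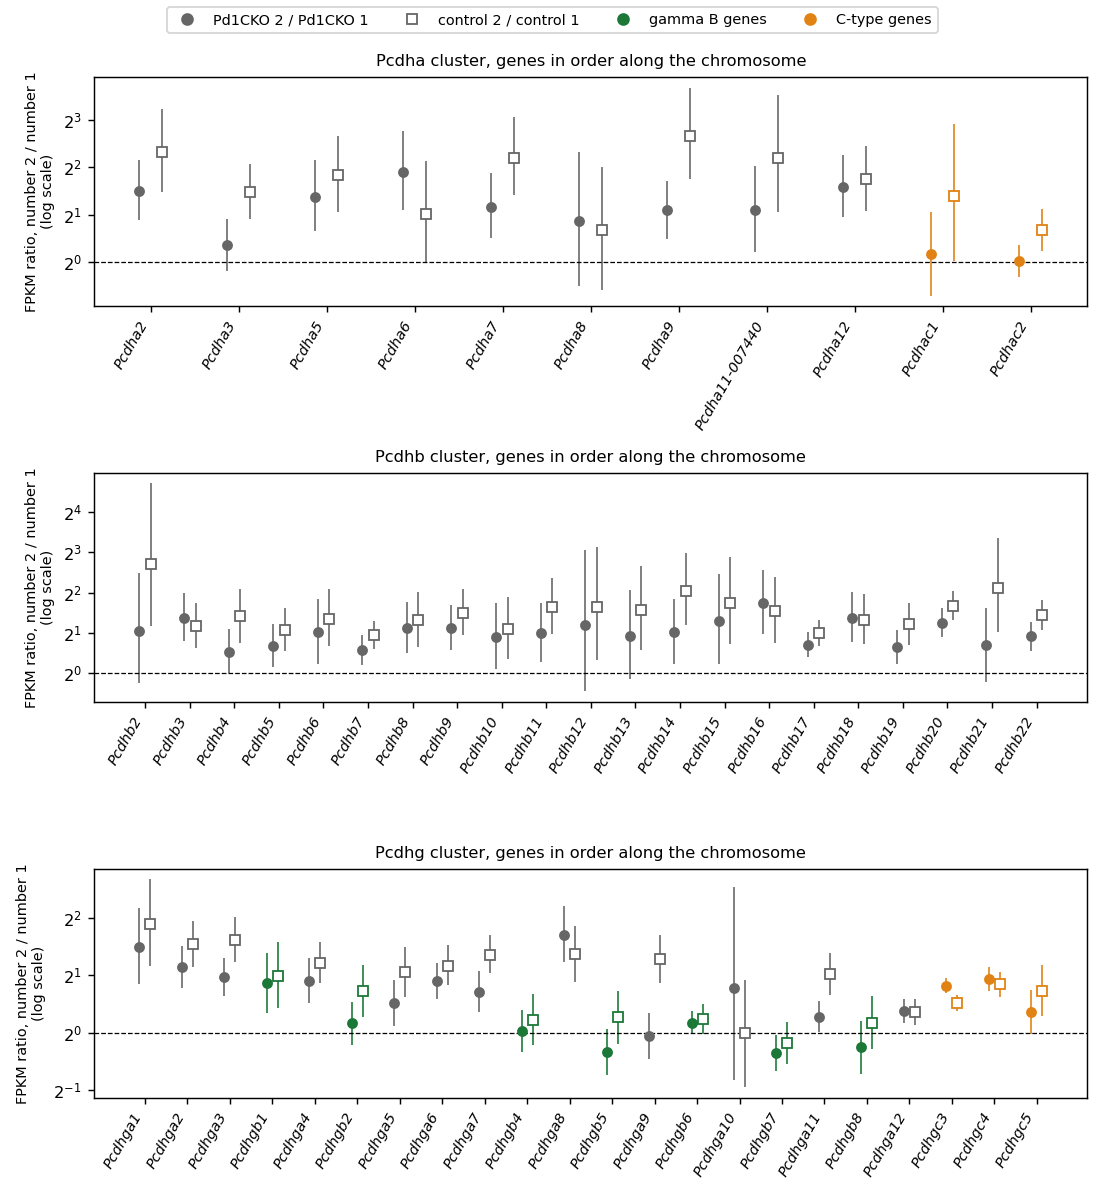
Ratio of FPKM between libraries numbered 2 and 1 (log scale) for clustered genes averaging 0.1 FPKM or more, in order along the chromosome; filled circles are within Pd1CKO, open squares within control, and bars are exact 95% counting intervals. All Pcdhb ratios lie above 1 in both genotypes, and gamma B genes from Pcdhgb4 onward lie near 1.

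The ratio was larger within control than within Pd1CKO for each clustered sum except that of the gamma C-type genes. The Pcdhb sum was 1.91-fold as high in Pd1CKO 2 as in Pd1CKO 1 and 2.52-fold as high in control 2 as in control 1. The Pcdha sum was 1.78-fold and 2.93-fold as high, and the Pcdhg sum 1.48-fold and 1.69-fold. The non-clustered sum was 1.03-fold and 1.07-fold as high, at 53.4 and 50.02 FPKM in Pd1CKO 2 and control 2, against 51.7 and 46.6 in Pd1CKO 1 and control 1. Clustered genes made up 61.0% of all protocadherin FPKM in Pd1CKO 2 and 63.5% in control 2, against 50.2% in Pd1CKO 1 and 48.7% in control 1. These shares use whole exon length, which includes the exon shared within the Pcdha and Pcdhg clusters. Whether the number effect differs between the genotypes could not be tested with 1 library in each combination.

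**Figure D4:**
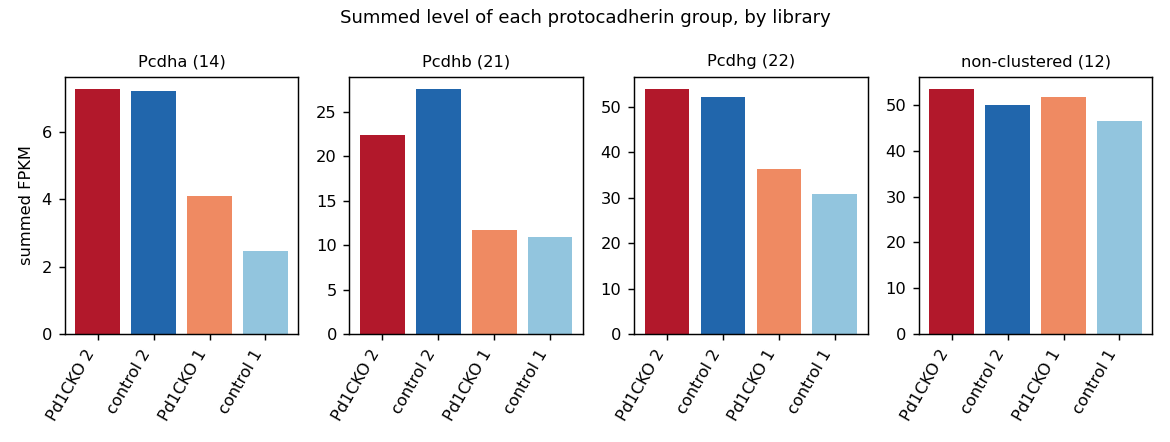
Summed FPKM of the 14 Pcdha, 21 Pcdhb, 22 Pcdhg and 12 non-clustered genes, with 1 bar for each library; red bars are Pd1CKO, blue bars control, and lighter bars the libraries numbered 1. The clustered sums are higher in both libraries numbered 2, and the non-clustered sums run from 46.6 to 53.4 FPKM.

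The 8 genes examined beside or between the clusters were chosen after their values were seen. Of these, 1 had both libraries numbered 2 above both numbered 1 and 4 had them below. Over all genes averaging 0.1 FPKM or more the shares were 34.2% and 30.0%. Taf7, between the Pcdhb and Pcdhg clusters, was at 7.48 and 6.79 FPKM in Pd1CKO 2 and control 2, against 7.82 and 8.27 in Pd1CKO 1 and control 1. Hdac3 and Diaph1, beyond the Pcdhg cluster, were at 34.5 and 12.2 FPKM in Pd1CKO 2 and at 35.0 and 11.8 in control 2, against 32.7 and 9.60 in Pd1CKO 1 and 34.9 and 9.28 in control 1. Diaph1 was the gene with both libraries numbered 2 above, with a ratio of 1.27. Rell2, also beyond the Pcdhg cluster, was at 3.57 and 2.96 FPKM in Pd1CKO 2 and control 2, against 5.18 and 6.29 in Pd1CKO 1 and control 1, and Wdr55 and Zmat2, before the Pcdha cluster, had ratios of 0.884 and 0.903.

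Marker lists of cell types also differed between the numbers, and their counts of genes called stand beside 16.5% higher and 18.5% lower over all genes tested. Of 11 postmitotic neuron markers, 7 were called higher in number 2 and 0 lower, with sums of 2452 and 2494 FPKM in Pd1CKO 2 and control 2, against 1328 and 1868 in Pd1CKO 1 and control 1. Of 9 radial glia markers, 2 were called higher and 7 lower, with sums of 605 and 624 FPKM, against 875 and 918. The sums were 6.55 and 5.23 FPKM, against 101 and 56.8, for the meninges and mesenchyme list, with 8 of 9 genes tested called lower. Lower sums in number 2 were also seen for endothelial, erythroid, and microglia and macrophage lists, with 6 of 9, 5 of 9 and 3 of 8 genes tested called lower and 0, 2 and 0 called higher. The ventral telencephalon list had 6 of 12 called lower and 1 higher, the dorsal list 4 of 9 lower and 2 higher, the choroid plexus and hem list 6 of 11 lower, and the diencephalon list 1 of 6 lower, which is near the share over all genes. The sums in Pd1CKO 2 and control 2, against Pd1CKO 1 and control 1, were 352 and 28.7 FPKM, against 311 and 233, for the choroid plexus and hem list, and 13.2 and 15.4 FPKM, against 20.5 and 56.4, for the diencephalon list. They were 1153 and 1241 FPKM, against 2125 and 2088, for the erythroid list, and 21.2 and 20.5 FPKM, against 32.4 and 27.4, for the microglia and macrophage list. No listed marker was at 0 in any library. The part of these cell types in the protocadherin values was not tested.

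Genotype gave no called member. In limma 0 of the 32 protocadherin genes tested passed between Pd1CKO and control and 0 had an unadjusted p under 0.05, with 0.0% of all 13927 genes called and 47 at that unadjusted level. The limma-voom fit on recovered fragments likewise called 0 members and 0 genes, with 0 members and 28 genes at an unadjusted p under 0.05. The spread within each genotype included the difference between the numbers, so a count of 0 leaves unknown how many genes differ. Of the 66 members, 8 had both Pd1CKO libraries above both controls, against 10.7% of all genes, and 1 had both below, against 7.16%. At both numbers 22 of the 66 were higher in Pd1CKO than in the control of that number, against 27.6% of all genes, and 12 were lower, against 22.4%.

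Gamma B genes were among the 8 with both Pd1CKO libraries above both controls, a count near the 10.7% over all genes. Pcdhgb6 averaged 4.63 ± 0.407 FPKM in Pd1CKO and 3.001 ± 0.360 in control (SD, n = 2 each). It was at 4.92 FPKM in Pd1CKO 2 against 3.26 in control 2, and at 4.34 in Pd1CKO 1 against 2.75 in control 1. The log2 difference was 0.49 ± 0.20 (SE), with a limma unadjusted p of 0.067 and an adjusted p of 0.9998. The ratio was 1.51 at number 2 and 1.58 at number 1, with 95% counting intervals of 1.29 to 1.77 and 1.34 to 1.87. Pcdhga11 was at 2.88 FPKM in Pd1CKO 2 against 2.30 in control 2, and at 2.37 in Pd1CKO 1 against 1.13 in control 1. Pcdhgb7 was at 1.83 against 1.43 FPKM at number 2 and 2.33 against 1.61 at number 1. The other members of the 8 were Pcdhgb4, Pcdhgb5, Pcdhac1, Pcdhac2 and Pcdh18. The gamma B sum was 1.24-fold as high in Pd1CKO 2 as in control 2 and 1.46-fold as high in Pd1CKO 1 as in control 1, while the gamma A sum was 0.936-fold and 1.25-fold.

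Few tested members were lower at both numbers. Of the 32, 13 were higher at both numbers and 2 lower, against 28.2% and 23.5% of the 13927 genes tested. The 2 lower ones were Pcdhga4, at 1.85 FPKM in Pd1CKO 2 against 2.60 in control 2 and 0.982 in Pd1CKO 1 against 1.12 in control 1, and Pcdhb7. The gene with both Pd1CKO libraries below both controls was Pcdhga10, at 0.117 against 0.261 FPKM at number 2 and 0.0677 against 0.262 at number 1. It rested on 10, 20, 6 and 23 fragments in Pd1CKO 2, control 2, Pd1CKO 1 and control 1, and each base of its exons is also covered by another annotated gene. The Pcdhb sum was 0.812-fold as high in Pd1CKO 2 as in control 2, where 18 of the 21 genes were lower, and 1.07-fold as high in Pd1CKO 1 as in control 1, where 10 were lower. Of all 22084 genes averaging 0.1 FPKM or more, 10744 were lower at number 2 and 9813 at number 1. Each of these counts sets 1 library against 1 library.

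**Figure D5:**
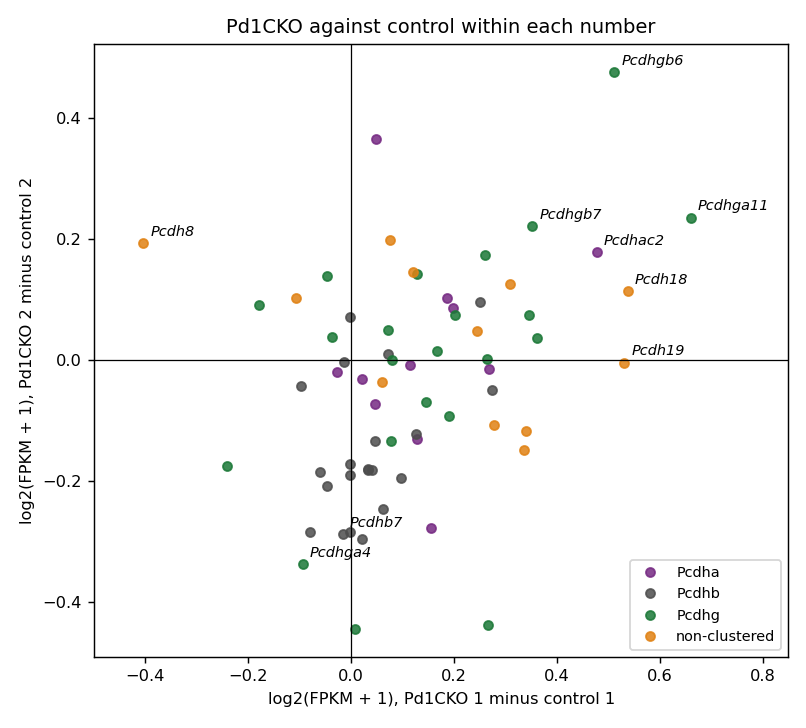
Difference between Pd1CKO and control on the log2(FPKM + 1) scale for the 66 members averaging 0.1 FPKM or more, with number 1 on the horizontal and number 2 on the vertical axis; colours give the gene group. Pcdhgb6 lies at 0.51 and 0.48, and most Pcdhb genes lie below 0 on the vertical axis and near 0 on the horizontal axis.

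The order of levels within the clusters depended on the length used. Each Pcdha gene shared at least 2860 bases of exon, and each Pcdhg gene at least 2116, with other members, and fragments there cannot be assigned to 1 gene. As a second scale, all fragments of a gene were divided by its length of exon not shared with any other gene on either strand. This scale holds only if no fragment in shared exon was counted, which was not tested. Pcdhga10, with 0 unshared bases, still had 6 to 23 fragments a library. On the second scale Pcdhgc3 stood at 29.4, Pcdhga11 at 8.21, Pcdhgb6 at 6.97, Pcdhgc4 at 6.58 and Pcdhga4 at 4.93. Over the whole length they stood at 9.73, 2.17, 3.82, 4.09 and 1.64 FPKM. Of the 5 highest genes by FPKM, 4 were among the 5 highest on the other scale in Pcdha, 5 in Pcdhb and 4 in Pcdhg. Exact runs of at least 100 bases were also shared with another member by the variable exon of 12 Pcdha and 8 Pcdhg genes, among them Pcdhgb6 with Pcdhgb5 over 163 bases, and by the transcripts of 13 Pcdhb genes, so the split of fragments between such genes is uncertain. Another gene overlaps on the opposite strand in 17 members, Pcdh7, Pcdh8, Pcdh10 and Pcdh19 included, and no label says whether strand was used in counting.

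Regulators of protocadherin promoters were listed with their genotype and number values. Of 22 genes, 0 passed for genotype. All 22 were higher in Pd1CKO 1 than in control 1 and 11 higher in Pd1CKO 2 than in control 2, with median log2 differences of 0.02 at number 2 and 0.31 at number 1, against 0.00 and 0.03 over the genes tested. The smallest genotype p belonged to the cohesin genes Stag2 and Pds5b, the repressor Smchd1 and the DNA demethylase Tet2 (limma adjusted p = 0.9998 for each). Stag2 was at 13.2 FPKM in Pd1CKO 2 against 11.3 in control 2, and at 14.5 in Pd1CKO 1 against 10.8 in control 1. Ctcf, the main factor of promoter choice, was at 32.7 FPKM in Pd1CKO 2 against 33.4 in control 2, and at 37.1 in Pd1CKO 1 against 30.3 in control 1. Between the numbers, calls were fewer than the 16.5% higher and 18.5% lower over all genes tested. Among the 22, 1 gene was called higher, the histone demethylase Kdm1a, and 1 lower, Uhrf1, which maintains DNA methylation. Uhrf1 stood at 23.8 and 23.9 FPKM in Pd1CKO 2 and control 2, against 51.1 and 44.6 in Pd1CKO 1 and control 1. Trim28 and Rest had the next smallest p and did not pass (limma adjusted p = 0.0885 and 0.0890).

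Of 27 genes of protocadherin partners and signalling, 24 were tested, and between the numbers 10 were called higher and 4 lower, with 0 for genotype. Over all genes tested 16.5% were called higher and 18.5% lower, so the count of lower genes is near that share. The list holds 9 genes of the WAVE actin-regulating complex, which delta-2 and clustered protocadherins recruit, of which 5 were called higher and 0 lower. They included Cyfip2, at 33.7 and 33.3 FPKM in Pd1CKO 2 and control 2, against 20.4 and 18.5 in Pd1CKO 1 and control 1, and Abi2, at 20.3 and 20.7 FPKM, against 13.95 and 12.3. Wasf2 stood the other way without passing, at 7.46 and 8.31 FPKM, against 12.6 and 9.83 (limma adjusted p = 0.0571), and Abi1, Brk1 and Cyfip1 did not pass either. Dab1, the Reelin adaptor, stood at 21.6 and 21.5 FPKM, against 12.8 and 9.82. Ppp1ca, a phosphatase catalytic subunit that binds delta-1 protocadherins, was lower, at 207 and 209 FPKM, against 307 and 361. For genotype, the smallest p belonged to Taf1, Brk1, Adam10 and Cyfip1 (limma adjusted p = 0.9998 for each).

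Among 29 other cadherin superfamily genes, 21 were tested, and between the numbers 9 were called higher and 3 lower, with 0 for genotype. The count of lower genes is near the 18.5% over all genes tested, of which 16.5% were called higher. Clstn2, a calsyntenin, stood at 11.6 and 12.5 FPKM in Pd1CKO 2 and control 2, against 2.49 and 2.06 in Pd1CKO 1 and control 1. Cdh13 stood at 10.4 and 10.3 FPKM, against 3.37 and 2.99. The classical cadherins Cdh8 and Cdh4 stood at 5.72 and 23.2 FPKM in Pd1CKO 2 and at 5.71 and 21.5 in control 2, against 2.48 and 13.02 in Pd1CKO 1 and 2.48 and 12.8 in control 1. The smallest genotype p belonged to Celsr1, Fat1, Cdh11 and Cdh24 (limma adjusted p = 0.9998 for each).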

How the data were processed

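Protocadherin expression was analysed in 4 libraries, grouped by genotype and by the number in their titles. The deposited table holds 1 value per gene and library, read as FPKM made by the authors from its values, since the header names no unit. The submitters' processing notes list mm10 as the build; as tools they list the read checkers FastQC and fastp, the aligners HISAT2 and TopHat, and StringTie and featureCounts, giving neither versions nor roles. Fragments were recovered from FPKM and exon lengths of Gencode M21, where 99.8% of genes were found. Of the values below 200 fragments, 97.3% to 97.5% came out whole within 0.1. The counting intervals are exact 95% intervals (Clopper-Pearson) and cover counting error alone, as PCR copies carry no identifiers.

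Differences were tested with limma 3.58.1 in R 4.3.3 (limma-trend, which lets the prior spread follow the expression level) on log2(FPKM + 1) for the 13927 genes averaging 1 FPKM or more, and Benjamini-Hochberg adjustment over these at 0.05. Genotype was the only term in one fit and the number in the other. The added 1 shrinks the fold change of weakly expressed genes. The fit was also run on simulated data with the same spread set for every gene, which need not match these libraries. No result given here rests on that run. Shared sequence was searched with BLAST 2.17.0 and exact matching, and other values came from Python 3.11.15. Alternatives were other pseudocounts, filters, scalings and thresholds, limma-voom, the replicate number as a block and leaving out each library.

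The members, gene lists and tests were chosen with earlier results of these data known. Named genes are the non-clustered members, the 5 highest genes and the C-type genes of each cluster, up to 6 members with the smallest p among those called, up to 3 tested members in each direction that moved the same way at both numbers, and up to 4 genes with the smallest p of each other list. The other gamma and alpha genes named with values, Ctcf and the genes beside the clusters were chosen after their values were seen.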

Additional observations from a re-analysis of the deposited data

How the results depend on the processing

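Of the alternatives, several changed the counts or summed levels. With the replicate number as a block, 5 genes were called for genotype and 0 members, with the smallest member p for Pcdhgb6 (0.0076, adjusted 0.676). The numbers only name the samples. Deviations from the group means correlated at 0.799 between libraries that share a number. For number 2 against number 1, fits without a filter called 2976 genes, 6 members and 13 list genes, against 4877, 16 and 28. Leaving out 1 library gave 2560 to 6916 genes, 6 to 17 members and 10 to 42 list genes. Pcdhb20, Pcdhgc4 and Pcdh7 were called in all 13 planned fits of this contrast, Pcdhga4 in 8, Pcdhga7 in 7 and Pcdhb7 in 6. The planned filter at 0.1 FPKM called 20 of 66 members, all higher, and 4406 of 22084 genes, of which 2019 were higher. With a pseudocount of 0.1 and a filter at 0.1 FPKM, chosen after the data were seen, 18 members and 4428 genes were called. No alternative without the block called a gene for genotype.

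On the log2 scale the Pcdha sum of number 2 over number 1 was 1.15, and 1.83 after quantile normalization. The same sum of the non-clustered genes was 0.07, 0.154 with recovered fragments scaled by depth, and 0.0015 to 0.15 when 1 library was left out. For Pd1CKO over control the Pcdha sum was 0.23, -0.10 after quantile normalization and -0.35 to 1.21 with 1 library left out. The Pcdhb sum was -0.18, with -0.72 to 0.64, and the Pcdhg sum 0.12, with -0.21 to 0.55. The non-clustered sum was 0.12, 0.081 after quantile normalization and 0.071 to 0.17 with 1 library left out. Leaving out 1 library sets genotype partly against number. The cause of the other changes was not tested. Tested members rested on 38 to 1928 fragments a library.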
